A study of Homo sapiens with 22 samples.

Results

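The genes described here were 8 genes of cholesterol synthesis and its control, HMGCS1, IDI1, FDPS, FDFT1, SQLE, DHCR7, SREBF2 and INSIG1, followed through a BRIC-Seq chase in HEK293T cells, a human embryonic kidney line. BRIC-Seq labels new RNA with bromouridine (BrU), recovers the labelled RNA with an antibody and follows its loss once BrU is removed. Each gene was represented by 1 row of the count files, the protein-coding transcript with the highest mean count over the chase, and all 8 were among the 15035 genes with a transcript that passed a mean of 1 CPM, the count relative to the library total. The list was named for synthesis and uptake, but its members were 6 enzymes of synthesis and 2 genes of its control, and no uptake receptor was among them. The control cells carried a control shRNA (shControl) and the knockdown cells an shRNA directed at ZNF598 (shZNF598), which encodes a ubiquitin ligase that senses ribosome collisions. All cells received 150 µM BrU for 24 h, and the labels gave no other treatment. RNA was collected at 0, 2, 4, 6 and 10 h of chase with 2 libraries per shRNA and time, and at 24 h with 1 library per shRNA. Neither the labels nor the methods state whether the hairpin lines were clones or whether numbered replicates came from separate cultures, so p-values measure the spread between these libraries, which may be technical. In bulk RNA, fewer cells and less RNA per cell cannot be told apart.

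Cells build cholesterol from acetyl-CoA through mevalonate, isoprenoid diphosphates, squalene and a series of sterols. The transcription factor SREBP2, the product of SREBF2, drives the genes of this route when sterol in the endoplasmic reticulum is low. When sterol is ample, INSIG proteins hold the SREBP2 escort SCAP in the endoplasmic reticulum, and INSIG1 is itself a target of SREBP2.

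Total counts ranged from 52352359 to 96963584 over the 20 libraries of 0-10 h and were 21220829 and 40157613 at 24 h, with each read counted in every isoform it overlapped. The 8 transcripts held 191 to 2640 counts per library over 0-10 h, and the higher of 2 replicates exceeded the lower by a median factor of 1.08 and at most 1.41, in DHCR7 at 0 h in shControl. ZNF598 was lower in shZNF598 cells by a log2 difference of -3.05 averaged over 0-10 h (SE 0.09, quasi-likelihood test of edgeR, adjusted p = 1.17e-18), with 4.05 to 8.55 CPM in shControl and 0.42 to 1.07 CPM in shZNF598 libraries. All 5 markers expressed by HEK293T cells passed 1 CPM, and 0 of 8 markers of blood, hepatocytes, fibroblasts and endothelium did, with a highest mean of 0.0181 CPM and 1 marker at 0. Of the HEK293T markers NEFM was lower in shZNF598 cells (log2 difference -0.78, adjusted p = 5.35e-07), as was KRT8 (-0.17, adjusted p = 0.0249), while VIM was higher (0.15, adjusted p = 0.0128), and any part of this in the results on the 8 genes was not tested.

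Values below are CPM after TMM scaling, which brings most transcripts of the libraries to a common level, so that RNA lost at the pace of the bulk has a slope of 0. The scaling factors fell with chase time, from 1.12-1.17 at 0 h to 0.718-0.751 at 10 h. For this reason slopes were also computed on total counts, a scaling added after the values were seen. For the genes of synthesis and control named at the start, the slope on total counts is given wherever it changed a direction or a call. For all other genes named below it is not given, so their directions and calls hold only for TMM scaling.

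At the end of labelling, FDPS had the highest level per transcript length in shControl cells, with 13.6 ± 1.3 CPM per kb (SD, n = 2). IDI1 followed at 7.11 ± 0.038, SQLE at 6.92 ± 0.41, FDFT1 at 6.68 ± 0.65, DHCR7 at 5.82 ± 1.4 and INSIG1 at 5.23 ± 0.38 CPM per kb. Each neighbouring pair among these 5 overlapped, so their ranks were not separated by the replicates. SREBF2, with 3.66 ± 0.072 CPM per kb, lay below INSIG1 without overlap, and HMGCS1 was lowest with 1.81 ± 0.08 CPM per kb. The HMGCS1 value was divided by a length of 5349 nt, whose last part may hold few reads, so it may be too low.

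**Figure D1:**
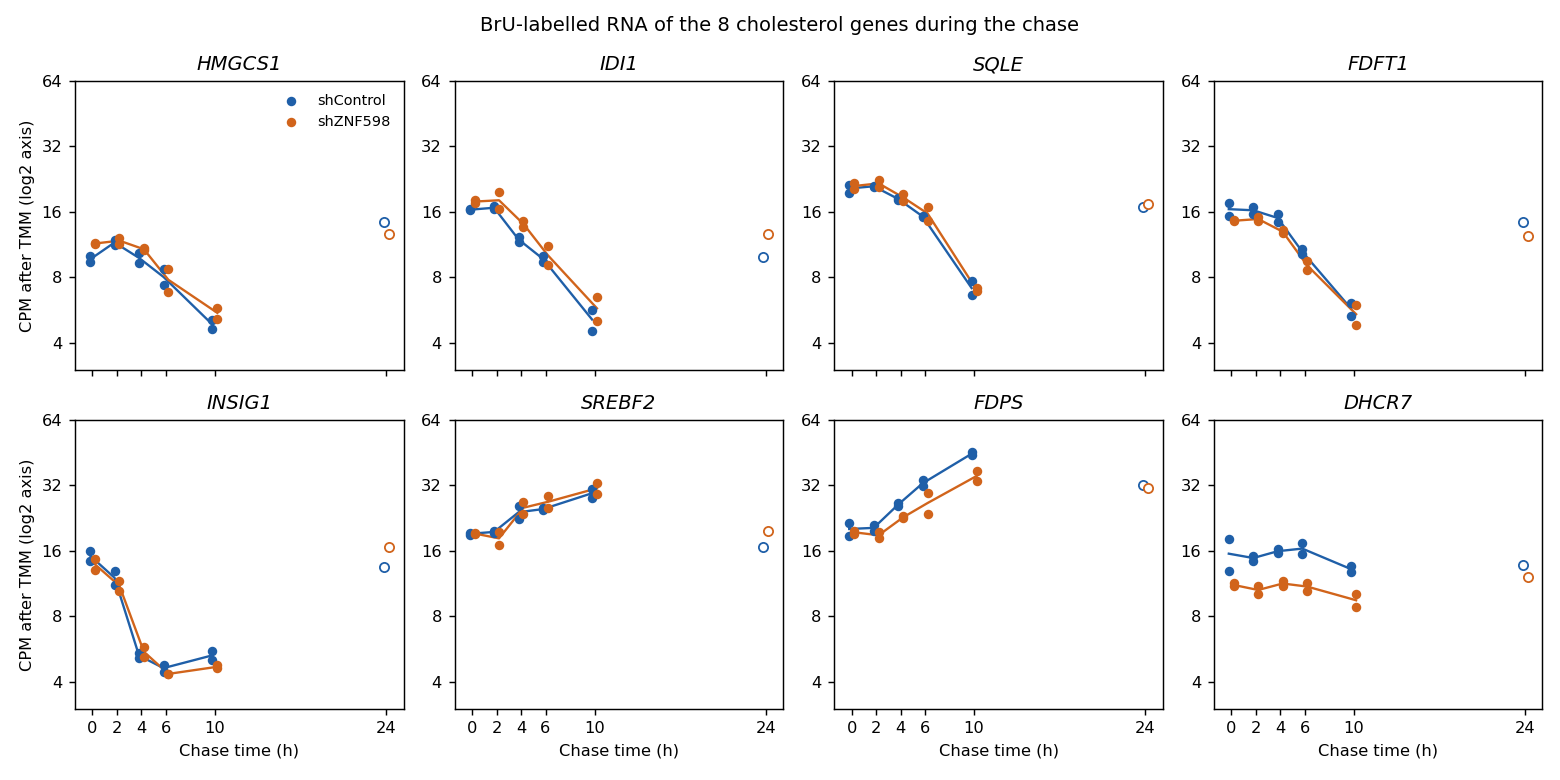
Level of labelled RNA (CPM after TMM scaling, log2 axis) of the 8 genes against chase time in hours. Points are libraries of shControl (blue) and shZNF598 (orange), lines join the means of 2 libraries over 0-10 h, and open points are the libraries of 24 h, 1 per shRNA. HMGCS1, IDI1, SQLE, FDFT1 and INSIG1 fall, FDPS and SREBF2 climb relative to the library, and DHCR7 lies lower in shZNF598 at each time from 0 to 10 h.

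Over 0-10 h, the labelled RNA of 5 of the 8 genes fell relative to the library in both cell lines, that of 2 rose and that of DHCR7 did not pass the test. The 5 that fell were HMGCS1, IDI1, FDFT1, SQLE and INSIG1, and 40.8% of all 79513 transcripts tested fell in shControl and 38.5% in shZNF598. The 2 that rose were FDPS and SREBF2, against 33.5% of all transcripts in shControl and 32.7% in shZNF598. For the 8 genes together the median was -0.13 log2 per hour in shControl cells and -0.14 in the knockdown, where all transcripts had -0.02 and -0.01. All transcripts include several rows of many genes and rows that are not protein-coding, so they are no matched comparison. In 2 sets of protein-coding genes, chosen by AT content as described below, the shControl medians were -0.07 and -0.06. Of these sets 54.9% and 51.9% were called lower and 22.1% and 27.0% higher. In shZNF598 the medians were -0.07 and -0.04, with 54.1% and 45.2% called lower and 19.8% and 28.3% higher. An excess of falling genes among the 8 was not tested. In the order of all shControl slopes, the 5 genes that fell had between 7.58% and 21.6% of transcripts below them. The members are taken here in the order of the pathway.

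HMGCS1 (ENST00000325110.11, hg38 chr5:43287470-43313412, minus strand) encodes the cytosolic enzyme that joins acetyl-CoA to acetoacetyl-CoA ahead of mevalonate. Its 2 shControl libraries held 9.97 and 9.36 CPM at 0 h, 11.9 and 11.2 at 2 h, 9.30 and 10.3 at 4 h, 8.72 and 7.33 at 6 h, and 5.08 and 4.601 at 10 h. The shZNF598 libraries held 11.5 and 11.4 CPM at 0 h, 11.4 and 12.2 at 2 h, 10.9 and 10.6 at 4 h, 8.73 and 6.83 at 6 h, and 5.80 and 5.16 at 10 h. All 4 libraries of 10 h lay below every earlier one, at 50.1% of the 0 h mean in shControl and 47.9% in shZNF598. The fitted line had a slope of -0.11 log2 per hour (SE 0.02, quasi-likelihood test of edgeR, adjusted p = 4.1e-05) in shControl, and of -0.12 in shZNF598 (SE 0.02, adjusted p = 2.39e-05).

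IDI1 (ENST00000381344.7, chr10:1039419-1049119, minus strand) encodes the isomerase that converts isopentenyl diphosphate to dimethylallyl diphosphate. In shControl it held 16.3 and 16.4 CPM at 0 h, 16.5 and 16.96 at 2 h, 11.7 and 12.2 at 4 h, 9.37 and 10.0 at 6 h, and 4.55 and 5.67 at 10 h. The shZNF598 libraries of IDI1 held 17.6 and 18.1 CPM at 0 h, 16.5 and 19.7 at 2 h, 13.6 and 14.5 at 4 h, 11.1 and 9.07 at 6 h, and 6.47 and 5.04 at 10 h. The groups of 2 h and 4 h did not overlap in either cell line, and the level at 10 h was 31.2% of that at 0 h in shControl and 32.3% in shZNF598. Its slopes, -0.18 log2 per hour in each (SE 0.02, adjusted p = 4.04e-08 in shControl and 6.74e-08 in shZNF598), were the steepest of the 8 genes.

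FDPS (ENST00000356657.10, chr1:155308916-155320665, plus strand) encodes farnesyl diphosphate synthase, which uses the product of IDI1 and supplies both sterols and protein prenylation. It moved in the opposite direction to IDI1. In shControl it held 18.8 and 21.5 CPM at 0 h, 21.1 and 19.7 at 2 h, 25.6 and 26.6 at 4 h, 31.7 and 33.8 at 6 h, and 44.001 and 45.6 at 10 h. Those of shZNF598 held 19.1 and 19.8 CPM at 0 h, 19.4 and 18.3 at 2 h, 22.6 and 23.0 at 4 h, 23.6 and 29.5 at 6 h, and 33.6 and 37.2 at 10 h. From 2 h on, each later group lay above the one before it without overlap in both cell lines, and 10 h stood at 222% of 0 h in shControl and 182% in shZNF598. The fitted line had a slope of 0.12 log2 per hour (SE 0.01, adjusted p = 7.94e-09) in shControl, and of 0.09 in shZNF598 (SE 0.01, adjusted p = 5.07e-07). On total counts it stayed past the threshold but was smaller, 0.05 (adjusted p = 0.000207) and 0.03 (adjusted p = 0.0208).

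FDFT1 and SQLE encode the enzymes of squalene, squalene synthase, which commits farnesyl diphosphate to sterols, and squalene epoxidase, which adds the first oxygen. FDFT1 (ENST00000615631.4, chr8:11795573-11839304, plus strand) held 15.3 and 17.6 CPM at 0 h in shControl, 15.6 and 16.9 at 2 h, 15.6 and 14.3 at 4 h, 10.2 and 10.8 at 6 h, and 6.12 and 5.33 at 10 h. Its shZNF598 libraries held 14.5 and 14.6 CPM at 0 h, 14.5 and 15.2 at 2 h, 13.2 and 12.7 at 4 h, 8.65 and 9.48 at 6 h, and 4.83 and 5.99 at 10 h. The 8 libraries of 6 and 10 h lay below all 12 earlier ones. The fitted line had a slope of -0.16 log2 per hour (SE 0.02, adjusted p = 4.77e-07) in shControl, and of -0.15 in shZNF598 (SE 0.02, adjusted p = 9.11e-07).

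SQLE (ENST00000265896.10, chr8:124998505-125022283, plus strand) held 19.6 and 21.3 CPM at 0 h in shControl, 21.1 and 20.8 at 2 h, 18.2 and 18.5 at 4 h, 15.3 and 15.2 at 6 h, and 6.60 and 7.66 at 10 h. In the knockdown it held 20.4 and 21.7 CPM at 0 h, 20.8 and 22.4 at 2 h, 19.3 and 18.004 at 4 h, 16.9 and 14.5 at 6 h, and 6.88 and 7.13 at 10 h. The values of the cell lines overlapped at each of these times, and 10 h stood apart below the rest, at 34.8% of 0 h in shControl and 33.3% in shZNF598. The fitted line had a slope of -0.15 log2 per hour (SE 0.02, adjusted p = 6.76e-06) in shControl, and of -0.16 in shZNF598 (SE 0.02, adjusted p = 5.65e-06).

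DHCR7 (ENST00000355527.7, chr11:71434411-71448393, minus strand) encodes the reductase of the last step to cholesterol from 7-dehydrocholesterol. In shControl it held 12.9 and 18.2 CPM at 0 h, 15.2 and 14.4 at 2 h, 16.3 and 15.6 at 4 h, 15.4 and 17.4 at 6 h, and 12.8 and 13.6 at 10 h. Under shZNF598 the values were 11.0 and 11.3 CPM at 0 h, 11.0 and 10.2 at 2 h, 11.6 and 11.0 at 4 h, 10.5 and 11.4 at 6 h, and 8.83 and 10.1 at 10 h. Its slope of -0.02 log2 per hour in each cell line did not pass the test (95% interval -0.04 to 0.01 in shControl and -0.05 to 0.01 in shZNF598, adjusted p = 0.26 and 0.21). On total counts the DHCR7 slope was -0.09 in shControl (adjusted p = 0.000139) and -0.08 in shZNF598 (adjusted p = 0.000272), and it also passed at -0.04 in each when only transcripts of at least 5 CPM were kept (adjusted p = 0.0024 and 0.00284).

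The 2 genes of control moved apart from each other. SREBF2 (ENST00000361204.9, chr22:41833105-41907305, plus strand) held 18.9 and 19.4 CPM at 0 h in shControl, 19.7 and 19.4 at 2 h, 25.7 and 22.5 at 4 h, 24.7 and 25.1 at 6 h, and 30.9 and 28.03 at 10 h. The knockdown libraries of SREBF2 held 19.1 and 19.3 CPM at 0 h, 19.5 and 17.1 at 2 h, 26.9 and 23.7 at 4 h, 25.2 and 28.6 at 6 h, and 29.2 and 32.9 at 10 h. In both cell lines the libraries of 4 h and later lay above those of 0 and 2 h, and the fitted line had a slope of 0.07 log2 per hour (SE 0.01, adjusted p = 6.5e-05) in shControl, and of 0.08 in shZNF598 (SE 0.01, adjusted p = 9.66e-06). On total counts neither SREBF2 slope passed, and that in shControl had the other sign (-0.0046, adjusted p = 0.791, and 0.016 in shZNF598, adjusted p = 0.351).

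INSIG1 (ENST00000340368.9, chr7:155297878-155310235, plus strand) held 14.4 and 15.99 CPM at 0 h in shControl, 11.2 and 12.9 at 2 h, 5.41 and 5.14 at 4 h, 4.45 and 4.79 at 6 h, and 5.53 and 5.05 at 10 h. The shZNF598 values of INSIG1 were 13.1 and 14.6 CPM at 0 h, 10.4 and 11.7 at 2 h, 5.18 and 5.80 at 4 h, 4.36 and 4.33 at 6 h, and 4.603 and 4.76 at 10 h. The 12 libraries of 4 to 10 h lay between 4.33 and 5.80 CPM, below all 8 of 0 and 2 h. A straight line described this course less well than that of the enzymes, with a slope of -0.17 log2 per hour in each cell line and the largest SE of the 8 genes (0.03, adjusted p = 0.000132 and 0.000135).

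**Figure D2:**
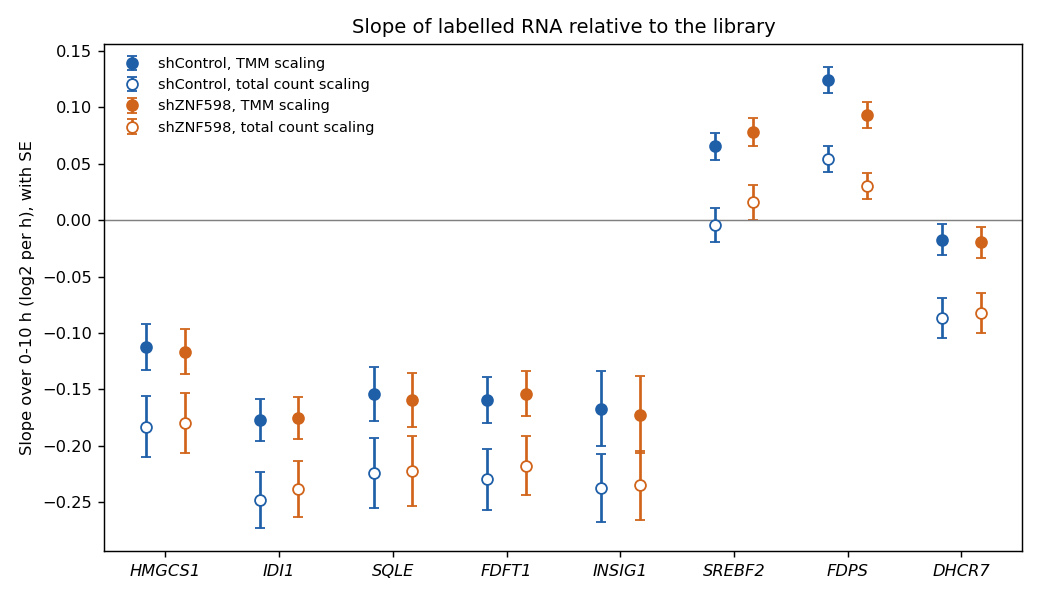
Slope of the labelled RNA of the 8 genes over 0-10 h (log2 per hour, with SE) in shControl (blue) and shZNF598 (orange) cells, after TMM scaling (filled) and on total counts (open). HMGCS1, IDI1, SQLE, FDFT1 and INSIG1 lie below 0 under both scalings, FDPS above 0, while SREBF2 reaches 0 and DHCR7 leaves it on total counts.

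The genes that fell did so at different times, as shown by the change between neighbouring times averaged over both cell lines, a contrast added after the values were seen. From 0 to 2 h INSIG1 alone of the 8 changed, by -0.33 log2 (SE 0.08, edgeR, adjusted p = 0.00646), beside 9.0% of all transcripts called lower and 3.82% called higher. This INSIG1 call was lost in 2 of 20 fits that left out 1 library. From 2 to 4 h INSIG1 fell by 1.10 (SE 0.08, adjusted p = 2.33e-10), a loss of more than a factor of 2 within 2 h, IDI1 fell by 0.42 (SE 0.09, adjusted p = 0.00042) and SQLE by 0.20 (SE 0.07, adjusted p = 0.0265), while SREBF2 rose by 0.39 (SE 0.08, adjusted p = 0.000252) and FDPS by 0.32 (SE 0.08, adjusted p = 0.00182). Those 3 lower and 2 higher calls compare with 24.5% and 22.6% of all transcripts in that interval, and the SQLE call was lost in 6 of 20 fits without 1 library and in 5 of 9 other settings, with adjusted p up to 0.174. HMGCS1 (-0.18, adjusted p = 0.081) and FDFT1 (-0.16, adjusted p = 0.115) did not pass between 2 and 4 h, except on total counts and with transcripts of at least 5 CPM, where both did.

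From 4 to 6 h all 5 falling genes were called lower, 26.3% of all transcripts being so, and FDPS alone was called higher, with 22.2% of all transcripts. The largest of these changes was that of FDFT1, -0.52 (SE 0.08, adjusted p = 2.33e-05). From 6 to 10 h, 5 genes were called lower against 27.7% of all transcripts and 2 higher against 32.1%. SQLE fell by 1.13 in that interval (SE 0.08, adjusted p = 7.8e-11), and only 0.474% of all transcripts had a lower value. IDI1 fell by 0.86 (SE 0.10, adjusted p = 5.88e-08), FDFT1 by 0.81 (SE 0.09, adjusted p = 2.78e-08) and HMGCS1 by 0.61 (SE 0.09, adjusted p = 4.42e-06). DHCR7 was called lower in this last interval (-0.26, SE 0.09, adjusted p = 0.0168), a call lost in 4 of 20 fits without 1 library, while INSIG1 was not called (0.15, adjusted p = 0.149) except as higher with RLE scaling (the median-ratio size factors) and with DESeq2 (0.24 in each, adjusted p = 0.0311 and 0.0372). FDPS rose by 0.43 (SE 0.08, adjusted p = 3.69e-05) and SREBF2 by 0.22 (SE 0.08, adjusted p = 0.0153). On total counts the 6 to 10 h change of INSIG1 was -0.23 (adjusted p = 0.0271), that of SREBF2 -0.16 (adjusted p = 0.0603) and that of FDPS 0.05 (adjusted p = 0.572), so the direction of the first 2 depended on the scaling.

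The 24 h libraries did not continue these courses. HMGCS1 stood at 14.3 CPM in shControl and 12.7 in shZNF598, 2.95-fold and 2.32-fold above the 10 h means. INSIG1 held 13.4 and 16.7 CPM (2.54-fold and 3.58-fold), SQLE 16.8 and 17.3 (2.36-fold and 2.48-fold), FDFT1 14.4 and 12.3 (2.51-fold and 2.28-fold) and IDI1 9.93 and 12.7 (1.94-fold and 2.21-fold). For these 5 genes both 24 h libraries lay above all 4 libraries of 10 h, as did those of 38.4% of all transcripts and of 65.4% of the 28623 transcripts whose slope was called negative in both cell lines. The median of those declining transcripts was 1.54-fold above 10 h. FDPS (32.3 and 31.1 CPM) and SREBF2 (16.6 and 19.8 CPM) lay below all 4 libraries of 10 h, as did 30.4% of all transcripts, and DHCR7 (13.8 and 12.1 CPM) overlapped them. These ranges are those of TMM scaling. In shZNF598, FDPS held 1044 of 40157613 counts at 24 h and 1961 of 79047375 in replicate 1 of 10 h, so on total counts its ranges overlapped. With 1 library per shRNA the 24 h values have no replicate check, and the comparison of 24 h with 10 h was added after the values were seen.

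Cells with the ZNF598 shRNA were then compared with the control cells. The shRNA and the cell line go together in these data. An effect of ZNF598 loss therefore cannot be told apart from other differences between the lines. Averaged over the 5 times of 0-10 h, 3 of the 8 genes were lower in shZNF598 cells and 0 were higher, beside 10.1% and 12.3% of all transcripts and 22.4% in either direction. DESeq2 gave the same counts, and 1 gene that was not called, IDI1, had an unadjusted p below 0.05. The median difference of the 8 genes was -0.03 log2, and that of all transcripts 0.02. The 3 lower genes were DHCR7, FDPS and FDFT1, and the size of the difference was largest in DHCR7.

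DHCR7 was lower in both shZNF598 libraries than in both shControl libraries at all 5 times, as were 2.44% of all transcripts. The mean difference was -0.50 log2 (SE 0.06, edgeR, adjusted p = 7.2e-07), a 1.42-fold lower level, and 1.18% of transcripts had a lower value. It was -0.48 at 0 h (SE 0.13, adjusted p = 0.116), -0.49 at 2 h (adjusted p = 0.0799), -0.49 at 4 h (adjusted p = 0.0496), -0.58 at 6 h (adjusted p = 0.0129) and -0.48 at 10 h (adjusted p = 0.0467), so the size varied little while the call was made at 3 of 5 times. The shControl libraries of 0 h were the least alike replicate pair, and DHCR7 lay at -0.70 at 0 h without shControl replicate 1 (adjusted p = 0.00457) and at -0.21 without shControl replicate 2 (adjusted p = 0.657). Of the 20 fits without 1 library, the call at 4 h was lost in 14, at 6 h in 2 and at 10 h in 16, and that of the average in none.

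The mean difference of FDPS was -0.20 log2 (SE 0.05, adjusted p = 0.0048), without overlap at 2, 4, 6 and 10 h, and 6.57% of all transcripts were lower without overlap at 4 or more times. At single times its difference was -0.05 at 0 h (adjusted p = 0.922), -0.11 at 2 h (adjusted p = 0.792), -0.20 at 4 h (adjusted p = 0.492), -0.30 at 6 h (adjusted p = 0.172) and -0.34 at 10 h (adjusted p = 0.0878), and none of these passed. The FDPS difference at 10 h passed in 4 of 20 fits without 1 library and with DESeq2 (adjusted p = 0.0262). The mean difference of FDFT1 was -0.16 log2 (SE 0.05, adjusted p = 0.0273), without overlap at 0, 2, 4 and 6 h. That call was lost in 8 of 20 fits without 1 library, with adjusted p up to 0.0764, and without the filter on low counts (adjusted p = 0.0766).

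The other 5 genes did not pass. IDI1 had a mean difference of 0.14 (95% interval 0.03 to 0.26, adjusted p = 0.0818), past the threshold in 4 of 20 fits without 1 library, and HMGCS1 a mean difference of 0.11 (0.00 to 0.22, adjusted p = 0.183). HMGCS1 was higher in shZNF598 without overlap at 0, 4 and 10 h and IDI1 at 0 and 4 h, as were 17.3% of all transcripts at 3 or more times and 33.7% at 2 or more. INSIG1 lay at -0.09 (-0.20 to 0.01, adjusted p = 0.232), SREBF2 at 0.03 (-0.06 to 0.13, adjusted p = 0.68) and SQLE at 0.03 (-0.07 to 0.12, adjusted p = 0.755), and SQLE overlapped at all 5 times. INSIG1 was lower without overlap at 6 and 10 h and SREBF2 higher at 6 h, and 27.5% of all transcripts were lower at 2 or more times and 58.7% higher at 1 or more. At single times, 0 of the 8 genes were called at 0 h and at 2 h, when 0.407% and 0.746% of all transcripts were, and DESeq2 called 0 at 0 h. DHCR7 was the gene with an unadjusted p below 0.05 at both times. DHCR7 was also the 1 gene called at 4, 6 and 10 h, when 1.4%, 2.29% and 3.23% of all transcripts were.

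**Figure D3:**
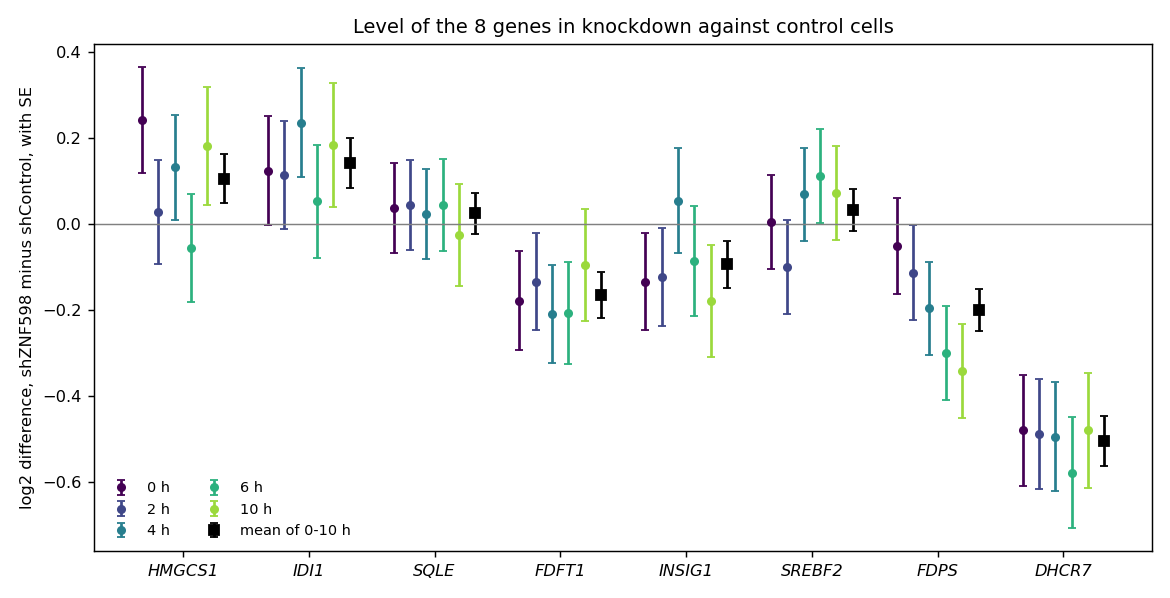
Difference in the level of labelled RNA between shZNF598 and shControl cells (log2, with SE) for the 8 genes at each chase time (coloured circles) and averaged over 0-10 h (black squares). DHCR7 lies between -0.48 and -0.58 at each time, FDPS runs from -0.05 at 0 h to -0.34 at 10 h, and SQLE and SREBF2 stay near 0.

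Whether the course of the chase differed between the cell lines was asked with the product of shRNA and hours. The slope differed in 0 of the 8 genes, and in 0.116% of all transcripts. DESeq2 also called 0, and none of the 8 had an unadjusted p below 0.05. FDPS had the largest difference, -0.03 log2 per hour (95% interval -0.06 to 0.00, unadjusted p = 0.0781, adjusted p = 0.975). For SREBF2 the interval ran from -0.02 to 0.05, for DHCR7 from -0.04 to 0.04, for IDI1 from -0.05 to 0.05, for FDFT1 from -0.05 to 0.06, for HMGCS1 from -0.06 to 0.05, for SQLE from -0.07 to 0.06 and for INSIG1 from -0.10 to 0.09. The difference of LIPA, given below, lies outside all 8 intervals, but LIPA is named because its difference passed in these same data. Changes within the intervals are not excluded, and that of INSIG1 is wide beside its slope of -0.17 log2 per hour.

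The other annotated rows of the same genes moved alike, though rows of a gene share reads and are not separate evidence. Of the rows that passed the filter, all 21 of FDPS and all 6 of SREBF2 had a slope called higher in both cell lines, and all 5 of HMGCS1, 5 of IDI1, 18 of FDFT1, 6 of SQLE and 4 of INSIG1 a slope called lower. All 12 rows of DHCR7 and all 21 of FDPS were called lower in shZNF598 cells on average, as were 15 of 18 of FDFT1, 1 of 4 of INSIG1 and 0 of HMGCS1, SQLE and SREBF2, while 1 of 5 rows of IDI1 was called higher. Transcripts annotated on the opposite strand over exons of FDPS, HMGCS1, IDI1 and SREBF2 had mean counts of at most 10.8, and pseudogenes of FDPS and IDI1 at most 30.2, against 649 to 1778 for the 4 genes themselves. Reads were kept only where they mapped to 1 locus, so reads shared with a pseudogene are missing from both. The pseudogene counts cannot show how many reads of FDPS and IDI1 were lost in that way.

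Across the 20 libraries of 0-10 h, IDI1 varied with HMGCS1 (Pearson r 0.96 of log2 CPM) and SQLE (0.96) and opposite to FDPS (-0.96), and INSIG1 opposite to SREBF2 (-0.87). DHCR7 stood apart, with r between -0.16 and 0.40 to the other 7. These values describe libraries that share their chase times and scaling. Among 8736 genes with at least 5 CPM, the course most like the mean of the 8 was that of EHD4 (r 0.99), followed by ICMT (0.99) and CCNA2 (0.99). The nearest genes were KIF3B for HMGCS1 (0.99), HSPA13 for IDI1 (0.99), RNF130 for FDPS (0.99), PPIL1 for SQLE (0.99), SMG8 for INSIG1 (0.99) and RASL10B for DHCR7 (0.93). GGPS1, the synthase of geranylgeranyl diphosphate, ranked 3 for IDI1 (0.99). For SREBF2 and FDFT1 the nearest rows were identifiers without a gene name, and NUMA1 was the nearest named gene to SREBF2 (0.97).

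The rest of the pathway was counted from lists of other genes. Of 14 further enzymes of mevalonate and sterol synthesis, 7 had a slope called lower in both cell lines and 3 a slope called higher, where 40.8% and 38.5% of all transcripts were lower and 33.5% and 32.7% higher in shControl and shZNF598. The shares called lower were larger in 2 sets of protein-coding genes with 1 row each, 54.9% and 51.9% in shControl. Those sets were chosen by the AT content of the 3′ UTR, and the share over all protein-coding genes is not given. MSMO1, which removes the methyl groups at carbon 4 of the sterol ring, had the steepest slope (-0.27 log2 per hour in shControl, adjusted p = 3.25e-06), followed by its partner NSDHL (-0.21, adjusted p = 5.4e-08), SC5D (-0.14), GGPS1 (-0.14), HSD17B7 (-0.10) and MVK (-0.10). ACAT2 (0.08), TM7SF2 (0.07) and LSS (0.05) were the 3 called higher, and the median of the 14 was -0.05. The median slope of all transcripts shifted by -0.07 log2 per hour on total counts in shControl. These 3 rises were of about that size or smaller, and whether they hold on total counts is not given. On average over 0-10 h, MSMO1 (0.31, SE 0.08, adjusted p = 0.00632) and NSDHL (0.24, SE 0.06, adjusted p = 0.00449) were higher in shZNF598 cells, and ACAT2, the thiolase at the entry to the pathway, was lower (-0.26, SE 0.05, adjusted p = 0.000181), while the other 11 of the 14 were not called, beside 12.3% of all transcripts higher and 10.1% lower. ACAT2 had no difference past the threshold at 0 h (-0.03, adjusted p = 0.949), when 0 of the 14 were called. It was called lower at 10 h (-0.51, adjusted p = 0.00389), with 61.7 ± 3.4 CPM in shControl and 43.2 ± 2.3 in shZNF598 (SD, n = 2). The slope difference between the cell lines was called in 0 of the 14.

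Of 5 genes that control SREBP processing, INSIG2 (-0.23), MBTPS2 (-0.09) and SREBF1 (-0.07) had a lower slope in shControl and SCAP a higher one (0.06). In shZNF598 the calls were 2 lower and 1 higher, SREBF1 not passing there (-0.04, adjusted p = 0.148). On average 0 of the 5 differed in level, none of them with an unadjusted p below 0.05 by edgeR, beside 22.4% of all transcripts called. Of 8 genes of cholesterol uptake and handling, 7 passed the filter, VLDLR being the exception, and 2 rose and 2 fell in each cell line. Beside the slope counts of both lists, 40.8% and 38.5% of all transcripts were called lower in shControl and shZNF598, and 33.5% and 32.7% higher. MYLIP (-0.17) and STARD4 (-0.13) fell, NPC2 (0.24) rose, and LIPA (0.20) rose in shControl and SCARB1 (0.04) in shZNF598. The rises of SCAP in shControl and SCARB1 in shZNF598 were smaller than the shift of the median slope on total counts (-0.07 and -0.06). LIPA, the lysosomal lipase that frees cholesterol from its esters, was the 1 gene of the 4 cholesterol lists, members included, whose slope differed between the cell lines. Its level rose from 21.2 ± 1.2 CPM at 0 h to 87.7 ± 8.3 at 10 h in shControl, and was 14.5 ± 0.35 and 12.6 ± 1.8 CPM in shZNF598 (SD, n = 2). The slope difference was -0.23 log2 per hour (SE 0.02, adjusted p = 3.6e-08), and the mean difference in level -1.47 (SE 0.05, adjusted p = 4.47e-17).

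For comparison, 7 genes of fatty acid synthesis, which SREBF1 products also drive, had 6 slopes called higher and 1 lower, that of ELOVL6 (-0.25), in each cell line, against 33.5% of all transcripts higher and 40.8% lower in shControl. On average 4 of the 7 were lower in shZNF598 cells, as were 10.1% of all transcripts. They were ELOVL6 (-0.39, adjusted p = 0.00415), ACLY (-0.24, adjusted p = 0.000332), FADS1 (-0.16, adjusted p = 0.00981) and SCD (-0.13, adjusted p = 0.0373). ACLY held 94.6 ± 3.1 CPM at 0 h and 243.5 ± 9.5 at 10 h in shControl against 78.5 ± 1.5 and 189 ± 1.1 in shZNF598 (SD, n = 2). Of 11 glycolytic enzymes, 10 had a higher and 1 a lower slope in each cell line, beside the same shares of all transcripts, and 0 differed in level on average by edgeR, where 1 had an unadjusted p below 0.05. The direction of these higher slopes is relative to the library, whose median slope shifted on total counts by -0.07 log2 per hour (shControl) and -0.06 (shZNF598).

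Sequence features that the choice of genes did not use were read from the annotated transcripts and, for promoters, from RefSeq (GRCh38.p14), where a window of 250 bases before to 50 after the start was found for 6 of the 8 genes, FDFT1 and SQLE being the others. These motifs were searched on both strands, TCACNCCAC (a sterol regulatory element), CCAAT (the box bound by NF-Y) and GGGCGG (a GC box bound by SP factors). The 6 genes had 10 windows, of which 7 held CCAAT and 9 GGGCGG, against 34.6% and 45.0% of 35116 promoters, and each gene held both in at least 1 window. Those promoters were not limited to genes detected in these libraries, as the 6 genes were. Some windows of HMGCS1 and of IDI1 also overlapped each other. The shares are therefore no matched comparison, and an excess was not tested. SREBF2 was the 1 gene with TCACNCCAC, which 1.13% of all promoters held. Matches to different motifs did not overlap, and a pair of GGGCGG matches overlapped in INSIG1 and in SREBF2. The promoters of the 2 control genes and of DHCR7, the gene with the largest difference in the knockdown, are given with matches to the 3 motifs, on either strand, in capitals. In SREBF2 (chr22:41832855-41833154, plus strand) the sterol regulatory element lay at -133 from the start and CCAAT at -106. In INSIG1 (chr7:155297628-155297927, plus strand) CCAAT lay at -170, and in DHCR7 (chr11:71448344-71448643, minus strand) at -94 and -48. Another DHCR7 window (chr11:71448994-71449293, minus strand) held 0 matches to any of the 3 motifs and is not printed.
SREBF2: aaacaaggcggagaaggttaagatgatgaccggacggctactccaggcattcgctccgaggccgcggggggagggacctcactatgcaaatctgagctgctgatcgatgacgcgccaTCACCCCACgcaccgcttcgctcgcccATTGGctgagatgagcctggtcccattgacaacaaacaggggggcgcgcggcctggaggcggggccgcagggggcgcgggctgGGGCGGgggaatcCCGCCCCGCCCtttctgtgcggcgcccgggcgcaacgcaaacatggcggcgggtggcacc
INSIG1: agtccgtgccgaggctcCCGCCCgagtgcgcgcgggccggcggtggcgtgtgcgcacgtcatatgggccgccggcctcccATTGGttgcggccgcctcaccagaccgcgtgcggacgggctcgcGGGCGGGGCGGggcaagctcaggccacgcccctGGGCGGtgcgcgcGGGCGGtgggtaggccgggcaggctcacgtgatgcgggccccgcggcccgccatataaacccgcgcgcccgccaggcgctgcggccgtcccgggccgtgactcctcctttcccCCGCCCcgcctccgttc
DHCR7: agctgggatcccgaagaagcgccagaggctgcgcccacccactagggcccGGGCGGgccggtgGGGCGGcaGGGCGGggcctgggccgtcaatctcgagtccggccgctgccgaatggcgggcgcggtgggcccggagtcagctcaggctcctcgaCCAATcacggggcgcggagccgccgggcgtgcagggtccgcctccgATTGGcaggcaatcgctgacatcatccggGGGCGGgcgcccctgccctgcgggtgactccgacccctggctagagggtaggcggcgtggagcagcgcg

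A match is a description of these letters and no measure of binding, and the absence of TCACNCCAC from the other windows says only that these letters were not in them. In the 3′ UTR, the part after the stop codon where many signals of RNA decay lie, the 5 genes that fell differed from the other 3. A and T made up 62.5% to 70.7% of the 3′ UTRs of HMGCS1, IDI1, FDFT1, SQLE and INSIG1 and 44.2% to 51.8% of those of FDPS, SREBF2 and DHCR7, beside a median of 58.4% over 10535 protein-coding genes. The pentamer ATTTA, the core of AU-rich elements, occurred 3.05 to 8.88 times per kb in the first group and 0 to 2.43 times in the second, beside a median of 1.80. The longer element TTATTTATT, present in 9.98% of genes, was in none of the 8. The 3′ UTR of FDPS was 56 nt long, and that of HMGCS1 3661 nt. A second HMGCS1 transcript of 3466 nt ends at chr5:43289395, short of the end of the first at 43287470. It held a mean count of 641.7 against 649.3, so few reads may lie in the last part of the longer one. The 3′ UTR length, AT content and ATTTA rate of HMGCS1 are those of the longer transcript and may not describe the RNA present. For IDI1 and DHCR7 the annotation held another version of the transcript, of 2739 and 2627 nt against about 2301 and 2667 nt in the count files, so their coordinates and 3′ UTRs are those of that version.

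Across all those genes, the Spearman rho of AT content with the slope was -0.10 in shControl and -0.17 in shZNF598 (across genes, which are not independent), and that of the rate of ATTTA was -0.14 and -0.18. It was -0.28 and -0.29 for the length of the 3′ UTR, which ran from 338 to 3661 nt in the 5 genes that fell and from 56 to 1645 nt in the other 3, and 0.15 and 0.23 for the GC content of the transcript. Genes with an AT content within the range of the 5 that fell had a shControl median of -0.07 log2 per hour, with 54.9% of 3271 called lower, and those within the range of the other 3 had -0.06, with 51.9% of 1888 called lower. In shZNF598 the medians were -0.07 and -0.04, with 54.1% and 45.2% called lower. This description of these features and slope was added after the values were seen.

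**Figure D4:**
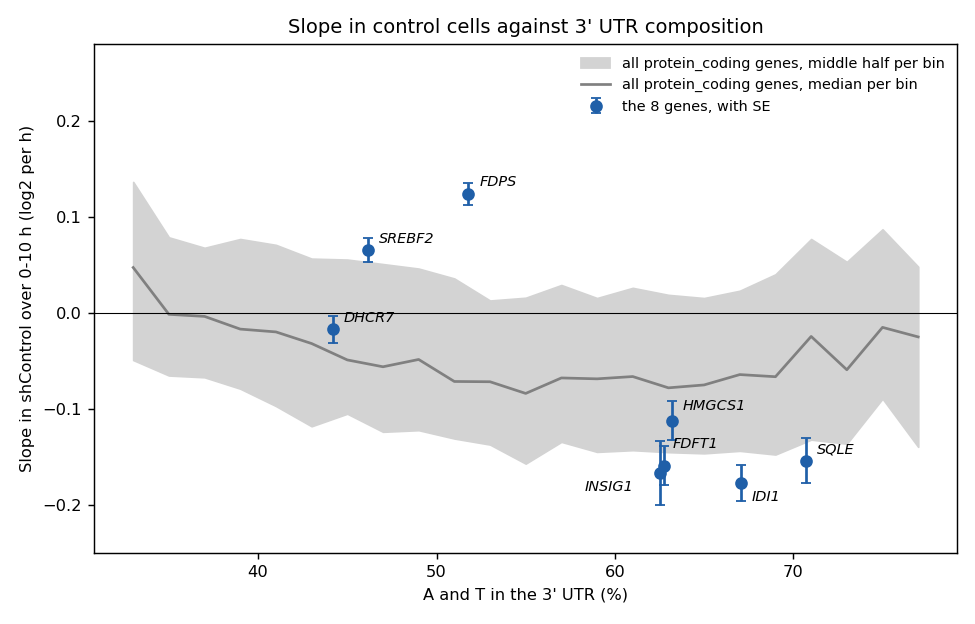
Slope in shControl over 0-10 h (log2 per hour) against the share of A and T in the 3′ UTR (%) for the 8 genes (points with SE), with the median (line) and the interquartile range (grey) of all protein-coding genes per bin of AT content. HMGCS1, IDI1, FDFT1, SQLE and INSIG1 lie at 62.5% to 70.7% and below 0, where the medians of all genes per bin run from -0.08 to -0.02.

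TGTANATA, the site of Pumilio proteins, was searched on the transcript strand and occurred in the 3′ UTRs of IDI1 (1 site), SQLE (2 sites) and SREBF2 (1 site), and in 32.1% of all genes. IDI1 had the steepest fall of the 8 genes and SREBF2 a rise, so the motif was in genes of either direction. The sites of these 2 genes (IDI1 chr10:1040517-1040546, minus strand, and SREBF2 chr22:41906681-41906710, plus strand) are given with the motif in capitals.
IDI1: ttgaatcttctTGTAAATAgtatttaccag
SREBF2: tgaggcatatcTGTATATAtttaaacctaa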

How the data were processed

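BRIC-Seq counts of 22 libraries from HEK293T cells were analysed. Per the labels and methods, the authors trimmed reads with fastp, aligned them with STAR 2.7.0a to hg38 with the GENCODE 32 annotation (1 mismatch, 1 locus per read) and counted them per transcript with featureCounts, whose strand setting is not given in the sources used here. The kit was stranded and reads were single-end of 50 nt. The deposited values are raw counts, not normalized. The study's 3 spike-ins were not used here, so slopes are relative to the library and no half-life is given. The 8 transcripts held 191 to 2640 counts per library over 0-10 h, and replicates differed by more than counting error in every group.

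Identifiers were named with GENCODE 44, and 92.2% of 227264 matched with their version and 98.4% without it. Groups came from the sample titles. The 79513 transcripts that averaged 1 CPM or more in the 0-10 h libraries were fitted with edgeR 4.0.16 (R 4.3.3) after TMM scaling, by the quasi-likelihood test with Benjamini-Hochberg adjustment over all of them and a threshold of 0.05. A model with 1 mean per group gave levels and changes between times, and a model with shRNA and hours gave slopes and their difference. The SE is the log2 value divided by the square root of F, and intervals are 95%. The 24 h libraries were scaled with the rest and given as values. Likeness was the Pearson r of log2 CPM with 0.5 added. The fits were tested on simulated counts. Alternatives were other scalings, filters, DESeq2 1.42.0, a replicate block, left-out libraries, chase windows, 1 row per gene and the second transcript of a gene.

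All 8 genes are named, and genes of the other lists where they passed a test or stood at the top or bottom of their list. Values of 1 such gene are not reported here. The 8 genes and the lists were chosen with earlier results of these data known. The changes between neighbouring times, the 24 h ranges, the comparison of slope with AT content and total count scaling were added after the values were seen.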

Additional observations from a re-analysis of the deposited data

Results flagged for a closer look

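LIPA, which encodes lysosomal acid lipase, was the 1 gene of the cholesterol lists whose effect of the chase differed between the cell lines by a test of the difference itself. Over 0-10 h the slope (log2 per hour) was 0.20 in shControl but -0.02 in shZNF598, a difference of -0.227 (SE 0.016, edgeR quasi-likelihood test of the product of shRNA and hours, adjusted p = 3.6e-08). The level was already lower in shZNF598 cells at 0 h (log2 difference -0.55, adjusted p = 0.0214), and the difference was -0.90 at 2 h, -1.29 at 4 h, -1.81 at 6 h and -2.79 at 10 h. At 24 h, with 1 library per shRNA, LIPA held 25.1 CPM in shControl and 5.99 CPM in shZNF598.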

How the results depend on the processing

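Of 3200 values of the 8 genes recomputed under alternatives, 2945 kept their direction and, where tested, their side of the threshold. A further 121 changed sign with no value past it, 99 lost a call, 26 gained a call and 6 changed sign with a value past the threshold. The remaining 3, which had no test, moved by at least the SE of the main value times the square root of 2. The count of genes called at 0 h was 0 to 1 over the 20 fits without 1 library. The other counts of called genes that changed by over 1.5 times did so with the chase window. Over 0-4 h, 3 of the 8 slopes were called in shControl and 2 in shZNF598, and over 0-24 h 1 and 0, against 7 in each over 0-10 h. Over 0-24 h, HMGCS1 had a slope of 0.0047 and SREBF2 of -0.00057 in shControl, and INSIG1 of 0.0075 in shZNF598. On total counts the shControl slope of SREBF2 was -0.0046, and the changes from 6 to 10 h were -0.23 for INSIG1 and -0.16 for SREBF2. That scaling moved the share of higher among called shControl slopes of all transcripts from 45.1% to 21.96%, in shZNF598 from 46.0% to 22.02%, and among called mean levels from 54.9% to 45.5%.

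The deviations of samples with the same replicate number correlated at some times and not at others (r -0.0023 at 0 h, 0.11 at 2 h, 0.33 at 4 h, 0.26 at 6 h and -0.20 at 10 h), and the labels name nothing these samples share, so the numbers were not taken as pairs. With a replicate block the counts of called genes were 0 at 0 h, 3 for the mean level, 7 for each slope and 0 for the slope difference, as without it. Over all transcripts the block called 80 slope differences against 92 without it. That number moved by over 1.5 times with upper quartile scaling (55), total counts (37), no filter (46), at least 5 CPM (152), 1 row per gene (10), the 0-4 h (0), 0-6 h (22), 0-24 h (0) and 2-10 h (52) windows and DESeq2 (519), and was 31 to 126 over fits without 1 library, 5 without every replicate 1 and 17 without every replicate 2. The 324 levels called at 0 h became 788 with no filter, 212 at 5 CPM, 91 with 1 row per gene, 550 with DESeq2, 11 with the 0 h libraries alone and 49 to 1899 without 1 library, the last without shControl replicate 2 of 0 h. The 593 levels called at 2 h and 1117 at 4 h became 1508 and 1852 with no filter, 274 and 550 at 5 CPM, and 163 to 1174 and 418 to 1987 without 1 library, and the 1822 at 6 h and 2568 at 10 h became 698 to 2922 and 802 to 3993 without 1 library. Settings that test fewer or more transcripts (36364 at 5 CPM, 14999 with 1 row per gene and 183249 with no filter, against 79513) also moved some counts of the other comparisons, and the 59119 and 56620 slopes called in shControl and shZNF598 became 27169 and 26946 over 0-4 h and 22969 and 20829 over 0-24 h. At 24 h the 8 transcripts rested on as few as 168 counts and 1 library per shRNA, which limits those values.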

Other observations

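MYLIP, whose product marks lipoprotein receptors for degradation, and INSIG2, the partner of INSIG1, fell with the 5 genes described above in both cell lines, while NPC2, which moves cholesterol out of the lysosome, rose relative to the library. MSMO1 fell from 7.20 ± 1.5 CPM at 0 h to 1.29 ± 0.13 at 10 h in shControl and from 9.72 ± 0.85 to 1.64 ± 0.074 in shZNF598 (SD, n = 2), and NSDHL from 8.19 ± 0.88 to 2.34 ± 0.044 and from 9.15 ± 0.90 to 2.702 ± 0.094. Both, chosen after their values were seen, act on the sterol ring ahead of DHCR7, and both were higher in shZNF598 cells on average, where DHCR7 was lower.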
